A study of Mus musculus with 6 samples.

Results

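The genes described here are 37 genes of fatty acid metabolism, chosen by name: those of fatty acid synthesis, of chain elongation and desaturation, of fatty acid activation, of mitochondrial oxidation, and of fatty acid carriage, storage and lipolysis. All 37 were among the 49523 gene symbols of the deposited table, and 35 of them passed a low-count filter that left 17630 genes for testing. They were measured by RNA sequencing in EO771 cells, a mouse mammary carcinoma line, in cancer stem cells (CSC, 3 libraries) and in cells that are not cancer stem cells (non-CSC, 3 libraries). Both groups are the same line, and the labels name no treatment, genotype, time or sorting marker. How the CSC were separated is not described, and nor is whether replicates came from separate cultures, so the spread behind each p-value is that between these libraries and may be technical. The study was designed to compare gene expression of CSC with that of non-CSC.

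Fatty acids are built in the cytosol from citrate: ATP citrate lyase makes acetyl-CoA, acetyl-CoA carboxylase makes malonyl-CoA, and fatty acid synthase joins these into palmitate, under the control of the transcription factor SREBP1. Elongases and desaturases then lengthen and unsaturate the chains, and acyl-CoA synthetases activate them for use. The activated chains are either stored as triglyceride in lipid droplets or carried into mitochondria through carnitine palmitoyltransferases and shortened step by step in beta-oxidation. Malonyl-CoA blocks the carnitine step, so that synthesis and oxidation do not normally run together.

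CSC libraries held 27099879 to 28205651 counts and non-CSC libraries 32204112 to 35971131, and levels are given in CPM, counts scaled to a common library size with TMM factors. The 37 genes together took 0.610% to 0.627% of the counts in CSC and 0.608% to 0.617% in non-CSC. Of 13 mammary epithelial markers, 9 averaged at least 5 CPM, with a summed level of 4456 to 4671 CPM in CSC and 3716 to 3906 CPM in non-CSC. The keratin genes Krt7, Krt8, Krt18 and Krt19 carried most of it, and 7 of the 13 markers were higher and 4 lower. Those lower were Epcam (10.2 CPM in CSC and 21.3 CPM in non-CSC), Cldn3 (170.4 CPM in CSC and 239 CPM in non-CSC), Cldn4 (1.34 CPM in CSC and 5.66 CPM in non-CSC) and Krt5 (1.005 CPM in CSC and 3.63 CPM in non-CSC), and the defining junction gene Cdh1 averaged 0.751 CPM in CSC and 0.951 CPM in non-CSC. Of 10 adipocyte markers Lep and Plin1 had no count, Adipoq had at most 1 count in a library, and the summed level of 53.4 to 55.8 CPM in CSC and 89.99 to 104 CPM in non-CSC came mostly from Lpl. Of 8 fibroblast markers Lum had no count and Col1a2, Col3a1 and Fap were below 0.2 CPM in every library, and the sum of 1195 to 1242 CPM in CSC and 555 to 589 CPM in non-CSC was almost all Dcn, the gene of decorin. The 3 fibroblast markers tested were all called higher in CSC. Besides Dcn these were Pdgfra (8.37 CPM in CSC and 6.57 CPM in non-CSC) and Col1a1 (1.06 CPM in CSC and 0.514 CPM in non-CSC). Of 9 macrophage markers Adgre1, C1qa and C1qb had no count, and the sum was 65.3 to 67.7 CPM in CSC and 47.8 to 50.7 CPM in non-CSC. Within it Itgam averaged 10.2 CPM in CSC and 0.740 CPM in non-CSC, Csf1r 8.05 CPM in CSC and 1.85 CPM in non-CSC, and Cd14 30.5 CPM in CSC and 20.7 CPM in non-CSC, all called higher, whereas Cd68 was lower at 17.8 CPM in CSC and 25.4 CPM in non-CSC. Of 5 endothelial markers Tek and Emcn had no count, and the sum stayed below 0.8 CPM in every library. In bulk libraries, fewer cells of a type and less RNA per cell cannot be told apart, and the part of these marker differences in the values that follow was not tested.

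The fatty acid genes did not move as a block. Of the 35 tested, 27 passed a Benjamini-Hochberg adjusted p of 0.05 in edgeR's quasi-likelihood test, adjusted over all genes tested, with 11 higher and 16 lower in CSC, and 8 did not pass. Across the transcriptome 66.5% of all genes tested differed, 33.4% higher and 33.1% lower, and among protein-coding genes 74.0% differed, 35.5% higher and 38.5% lower. The share of fatty acid genes that differed, 77.1%, is near that of protein-coding genes and is no result about them as a group. Their median log2 fold change was -0.05, beside -0.01 over protein-coding genes, and their median size of change was 0.29, beside 0.32. Only 10 of the 27 changed by 0.5 or more on the log2 scale, 5 higher and 5 lower. Changes of at least 2-fold were found for Mgll, which was higher, and Acacb, which was lower, whereas 12.1% of all genes tested changed that much. Mgll passed the low-count filter only through its CSC libraries. Replicates varied little, at a biological coefficient of variation of 4.11% over all genes, so that differences of under 10% could pass the test. The groups did not overlap for 29 of the 35 tested genes. The share over all genes is not given here, so where groups are said to be apart below, this only describes the libraries.

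**Figure D1:**
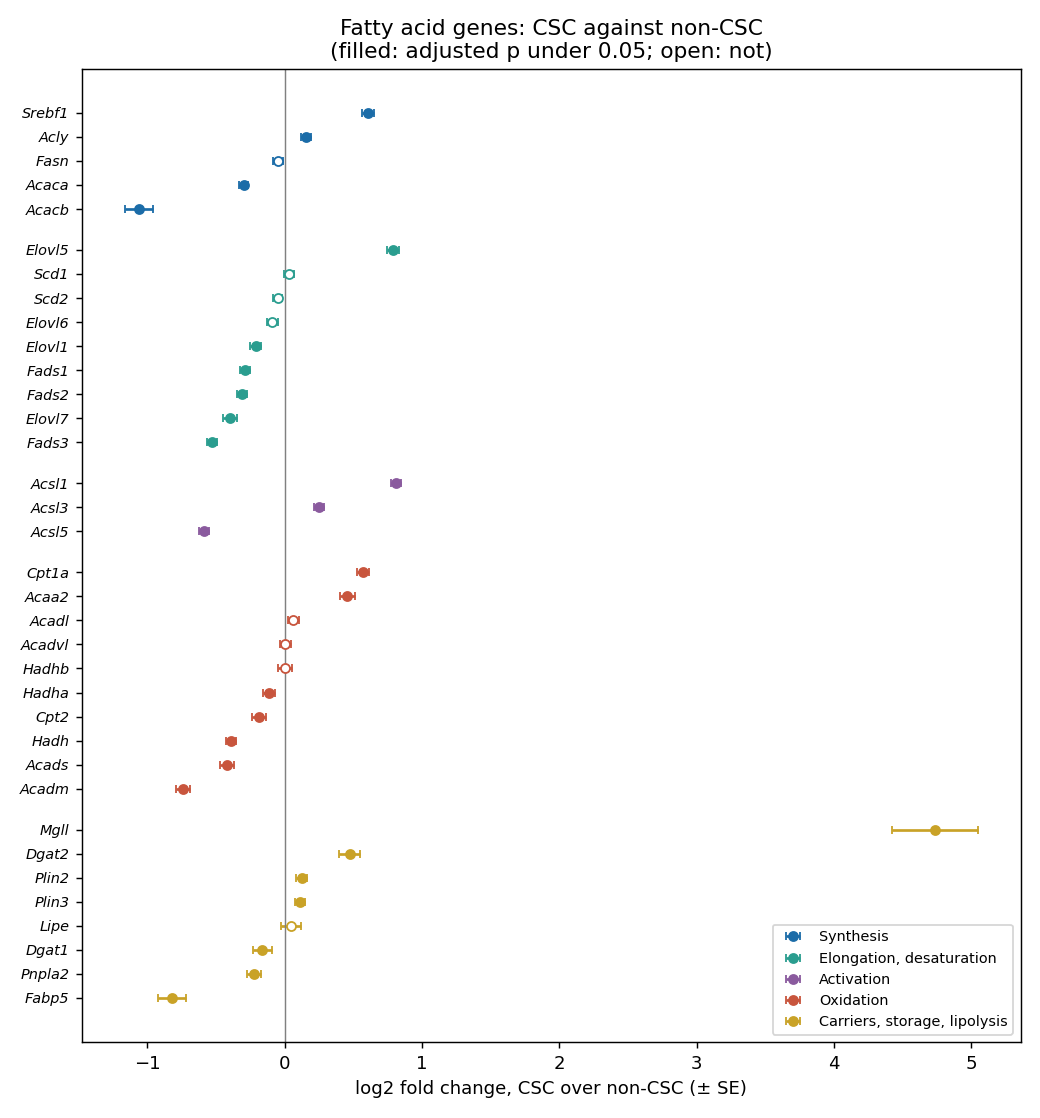
Log2 fold change of CSC over non-CSC for the 35 tested genes (x axis, points with SE bars), grouped by role down the page and ordered by size within a role; filled points have an edgeR adjusted p under 0.05 and open points do not. Every role holds genes on both sides of 0, and Mgll at 4.74 lies far from the rest, which span -1.06 to 0.81.

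By role, synthesis had 2 genes higher, 2 lower and 1 that did not pass, with a median log2 fold change of -0.05. Elongation and desaturation had 1 higher, 5 lower and 3 that did not pass, with a median of -0.21. In that role the genes called higher were 2 with upper-quartile or library-size scaling, 3 with a chromosome offset (then with 3 lower) and 4 with a neighbourhood offset. Among the acyl-CoA synthetases 2 were higher and 1 lower (median 0.25), with 1 higher under the chromosome offset. Oxidation had 2 higher, 5 lower and 3 that did not pass (median -0.06). Carriers, storage and lipolysis had 4 higher, 3 lower and 1 that did not pass (median 0.08), with 2 higher without CSC replicate 1. Summed per kilobase of transcript, the synthesis genes reached 231 to 233 CPM per kb in CSC and 203 to 214 in non-CSC. Without Srebf1, which encodes a transcription factor, the 4 enzyme genes summed to 166 to 169 in CSC and 163 to 167.5 in non-CSC, which overlap. The elongation and desaturation genes reached 587 to 611 in CSC and 627 to 640 in non-CSC. Most of this was Scd2, at 342 to 365 in CSC and 359.5 to 372.5 in non-CSC. The same sums were 154 to 158 in CSC and 178 to 185 in non-CSC for the synthetases, and 235 to 249.6 in CSC and 257 to 265 in non-CSC for oxidation. Most of the synthetase sum was Acsl5, at 90.8 to 93.8 in CSC and 134 to 141 in non-CSC. For storage the sums overlapped, at 169 to 176 in CSC and 163 to 172 in non-CSC.

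Within synthesis the regulator gene and 1 enzyme gene rose, 2 enzyme genes fell and 1 did not pass. Srebf1, which encodes SREBP1, the transcription factor that drives fatty acid synthesis genes, was at 278, 282 and 279 CPM in CSC, against 199, 180 and 173 CPM in non-CSC (chromosome 11 at 60199084 to 60224186, GRCm38). All CSC libraries lay above all non-CSC libraries, and the rise was 0.61 ± 0.043 on the log2 scale (SE; edgeR adjusted p = 4.07e-11). Fasn, the gene of fatty acid synthase and a textbook SREBP1 target, was at 789, 774 and 792 CPM in CSC, against 842, 822 and 774 CPM in non-CSC. Its groups overlapped and it did not pass (log2 fold change -0.05, 95% interval -0.12 to 0.03; edgeR adjusted p = 0.235), though without non-CSC replicate 3 it fell by 0.09 (adjusted p = 0.0368). Acly, the gene of ATP citrate lyase, was at 328, 323 and 315 CPM in CSC, against 282, 292 and 293 CPM in non-CSC, a rise of 0.16 (adjusted p = 0.000464). These differences within the first steps of synthesis were thus 1.52-fold for Srebf1, 1.11-fold for Acly and 0.966-fold for Fasn.

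The acetyl-CoA carboxylases, which make malonyl-CoA, were lower in CSC. Acaca, the cytosolic form that feeds synthesis, was at 149.5, 148 and 147 CPM in CSC, against 184, 180.3 and 182 CPM in non-CSC, a fall of 0.30 ± 0.034 on the log2 scale (SE; edgeR adjusted p = 6.91e-08). Of the 50-base words of its longest transcript 52.6% also occur in transcripts of other genes, with the pseudogene Gm5182 sharing the most, so that its count is uncertain. Gm5182, looked up for that reason, had 23.5, 22.6 and 23.7 CPM in CSC and 30.8, 31.1 and 28.8 CPM in non-CSC. Acacb encodes the form at the outer mitochondrial membrane, whose malonyl-CoA restrains carnitine palmitoyltransferase. It was a low gene at 3.26, 2.97 and 3.03 CPM in CSC, against 6.08, 6.91 and 6.33 CPM in non-CSC, and it fell by 1.06 ± 0.10 (adjusted p = 3.93e-09), the largest fall among the 35 tested genes.

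The 250 bases before the annotated start of Fasn are shown because the gene did not pass the test while its regulator rose. In this and the other windows printed, capitals mark matches on either strand to CCAAT (reverse complement ATTGG), the box bound by NF-Y, to CACGTG, the E-box, to TCACNCCAC, the core of the sterol regulatory element, and to TGACGTCA, the cyclic AMP element.
Fasn, chr11:120824548-120824797, minus strand, GRCm38.p6: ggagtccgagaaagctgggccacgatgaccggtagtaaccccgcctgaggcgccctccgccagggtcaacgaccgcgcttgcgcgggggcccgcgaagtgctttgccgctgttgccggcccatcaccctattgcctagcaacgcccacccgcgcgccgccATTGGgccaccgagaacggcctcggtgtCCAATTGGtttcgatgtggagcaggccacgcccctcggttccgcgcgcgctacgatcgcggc
It held 3 CCAAT matches, of which 2 overlap each other, and none of the other 3 motifs. Across the 32851 windows of this length in the RefSeq promoter table, 33.8% held CCAAT, 6.02% the E-box, 1.05% the sterol core and 1.55% the cyclic AMP element. Windows could be matched for 30 of the 37 genes (36 windows, since some have several starts), and 14 of the 36 windows (38.9%) held CCAAT. A match is a match of letters only and says nothing of binding. Only exact matches within 250 bases were sought, so a window without a match may still hold such a site, or one may lie elsewhere.

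Among elongases and desaturases, Elovl5 rose and the others fell or did not pass. Elovl5 lengthens polyunsaturated chains. It was at 88.3, 90.6 and 88.6 CPM in CSC, against 53.1, 49.1 and 52.8 CPM in non-CSC (chromosome 9 at 77917365 to 77984519), a rise of 0.79 ± 0.042 on the log2 scale (SE; edgeR adjusted p = 1.16e-13). The groups were well apart. Elovl7 and Elovl1, which act on saturated and very long chains, fell by 0.40 (adjusted p = 1.89e-07) and 0.21 (adjusted p = 8.76e-05). Elovl1 was at 87.5, 82.0 and 89.0 CPM in CSC, against 96.8, 99.7 and 102 CPM in non-CSC. Elovl7 was at 33.9, 34.8 and 34.5 CPM in CSC, against 45.5, 42.9 and 47.6 CPM in non-CSC. Elovl6, which carries palmitate to stearate, was at 54.2, 58.2 and 56.8 CPM in CSC, against 61.2, 59.0 and 59.9 CPM in non-CSC, and did not pass (log2 fold change -0.09, adjusted p = 0.0723), though it fell by 0.12 without CSC replicate 2 (adjusted p = 0.0406). Elovl4, the elongase of retina and skin, had no count in any library, which allows up to 3 counts, or 0.109 CPM in CSC replicate 1.

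Per kilobase of transcript, Elovl5 made up 32.5%, 33.8% and 32.1% of the summed Elovl level in CSC, against 20.3%, 18.9% and 19.5% in non-CSC. Elovl1 remained the largest contributor, at 49.5%, 47.0% and 49.6% in CSC, against 56.8%, 59.0% and 58.0% in non-CSC. The ratio of Elovl5 to Elovl7 per length was 3.70 to 3.76 in CSC and 1.60 to 1.68 in non-CSC. The start of Elovl5 is shown as that of the only elongase gene that rose.
Elovl5, chr9:77917115-77917364, plus strand, GRCm38.p6: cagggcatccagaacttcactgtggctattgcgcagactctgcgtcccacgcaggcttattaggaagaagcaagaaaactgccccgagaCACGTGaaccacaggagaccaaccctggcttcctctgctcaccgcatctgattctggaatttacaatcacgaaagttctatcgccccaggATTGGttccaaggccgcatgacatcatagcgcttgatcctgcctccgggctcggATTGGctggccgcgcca
This window held 2 CCAAT matches and 1 E-box, and no sterol core.

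The stearoyl-CoA desaturases, which place the first double bond in a saturated chain, did not pass, in a stretch where neighbouring genes were lower. Scd2 was by far the most abundant of the 37 genes, at 354 CPM per kb in CSC and 367 in non-CSC. It was at 1866, 1945 and 1989 CPM in CSC, against 2032, 2012 and 1961 CPM in non-CSC, and the groups overlapped (log2 fold change -0.05, 95% interval -0.12 to 0.02; edgeR adjusted p = 0.194). Scd1 was at 284, 259.9 and 277 CPM in CSC, against 259, 276 and 268 CPM in non-CSC (0.03, interval -0.05 to 0.11; adjusted p = 0.506), and it rose by 0.09 and 0.10 with upper-quartile and library-size scaling (adjusted p = 0.0485 and 0.0347). The pair share under 5% of their 50-base words with other genes. Both lie on chromosome 19 at 44293676 to 44407709, where the 30 nearest tested protein-coding genes had a median log2 fold change of -0.41. With that median taken out as an offset in the fit, Scd1 was higher by 0.44 (adjusted p = 8.8e-10) and Scd2 by 0.36 (adjusted p = 2.27e-09). Here and wherever an offset is used, it was taken as exact. Such p-values therefore leave out the spread among the neighbouring genes and are too small to that extent.

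The Fads genes, neighbours on chromosome 19 at 10040855 to 10196874, fell together. Fads1 and Fads2 make the double bonds of long polyunsaturated fatty acids, and Fads3 is their homologue with sphingoid bases as substrate. Fads3 was at 118.5, 115 and 116.5 CPM in CSC, against 176, 167.5 and 162 CPM in non-CSC, a fall of 0.53 ± 0.038 on the log2 scale (SE; edgeR adjusted p = 2.24e-11). Fads2 was at 83.1, 87.5 and 85.3 CPM in CSC, against 108, 106 and 104 CPM in non-CSC (fall of 0.31; adjusted p = 1.72e-07), and Fads1 at 105, 107 and 107 CPM in CSC, against 129, 132 and 129 CPM in non-CSC (fall of 0.29; adjusted p = 1.73e-07). No CSC library reached the lowest non-CSC library in any of them. Their neighbours were lower too, with medians of -0.14 around Fads3, -0.17 around Fads2 and -0.21 around Fads1. With the neighbourhood median as an offset the falls were 0.39, 0.14 and 0.08, all still past the threshold. With the median of the whole chromosome as an offset, Fads2 (-0.02, adjusted p = 0.694) and Fads1 (0.00, adjusted p = 0.97) no longer passed and Fads1 changed sign.

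**Figure D2:**
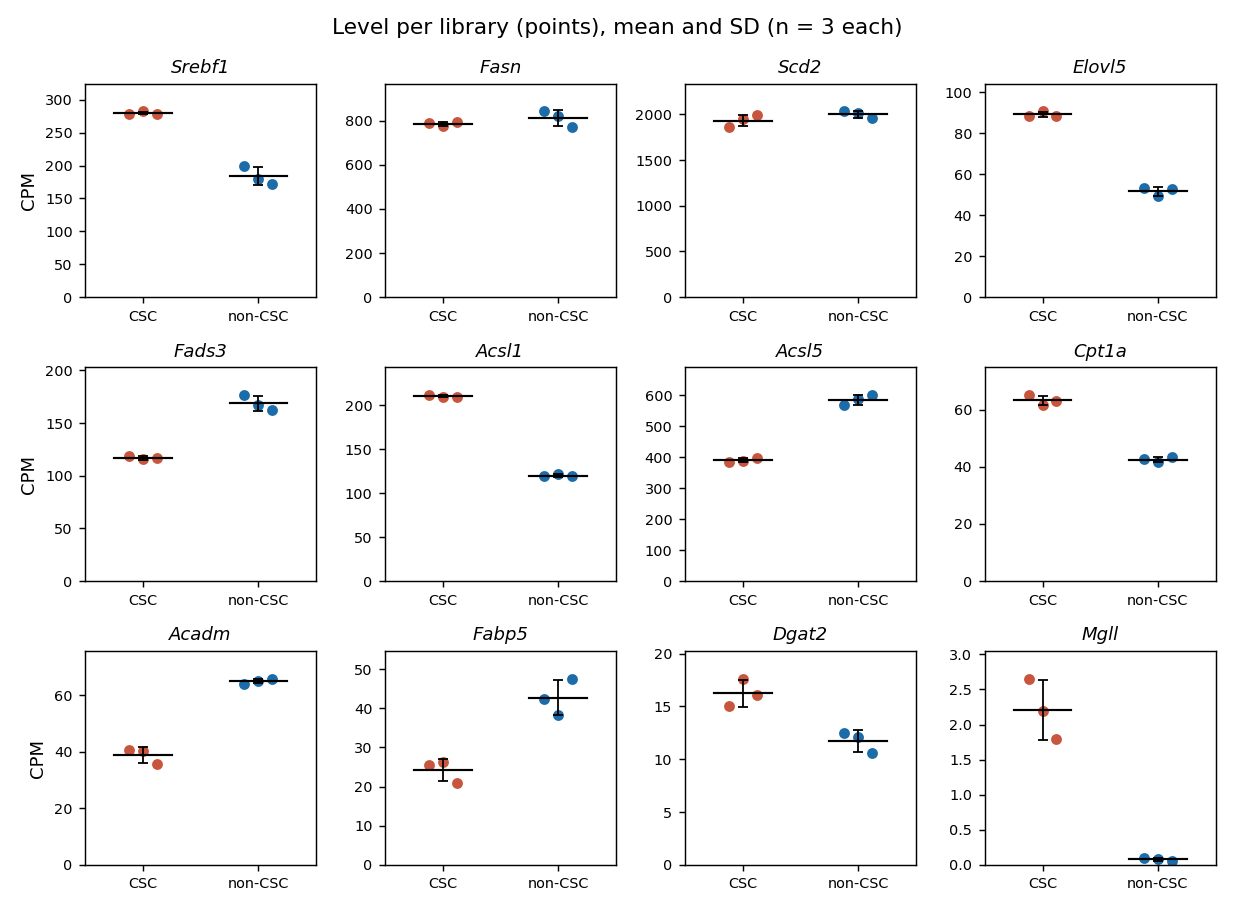
CPM of 12 fatty acid genes in each library (points), CSC on the left and non-CSC on the right, with the mean (line) and SD (bar, n = 3 each); every y axis starts at 0. Srebf1, Elovl5, Acsl1, Cpt1a, Dgat2 and Mgll lie higher in CSC, Fads3, Acsl5, Acadm and Fabp5 lower, and the groups overlap for Fasn and Scd2.

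The acyl-CoA synthetases, which activate fatty acids by joining them to coenzyme A, exchanged shares. Acsl1, known as the main synthetase of fat, liver and heart, was at 211, 209.5 and 209 CPM in CSC, against 119, 121 and 119 CPM in non-CSC (chromosome 8 at 46471037 to 46536051). It rose by 0.81 ± 0.035 on the log2 scale (SE; edgeR adjusted p = 1.72e-15). Acsl5, a synthetase of mitochondria and endoplasmic reticulum, was at 385, 387 and 398 CPM in CSC, against 569, 588 and 599.7 CPM in non-CSC (chromosome 19 at 55251861 to 55296628), a fall of 0.59 ± 0.035 (adjusted p = 8.54e-13). The neighbours of Acsl5 had a median of -0.25 and those of Acsl1 -0.13. With these as offsets Acsl5 was lower by 0.33 (adjusted p = 1.7e-08) and Acsl1 higher by 0.94 (adjusted p = 1.16e-16). Acsl3, which is found on lipid droplets, was at 105, 104 and 108 CPM in CSC, against 89.3, 89.3 and 88.5 CPM in non-CSC, a rise of 0.25 (adjusted p = 2.86e-06) that did not pass with a chromosome offset (0.05, adjusted p = 0.214). The groups did not overlap for any of the 3.

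Per kilobase of transcript, Acsl5 made up 51.3%, 51.1% and 51.8% of the summed level of Acsl1, Acsl3, Acsl4 and Acsl5 in CSC, against 69.2%, 69.9% and 70.1% in non-CSC, and Acsl1 made up 21.0%, 20.7% and 20.4% in CSC, against 10.8%, 10.8% and 10.4% in non-CSC. Acsl4 is not among the 37 genes and is included to complete the family, in which Acsl6 had at most 2 counts in a library. Acsl5 was thus the leading form in both groups, and the ratio of Acsl1 to Acsl5 was 0.393 to 0.410 in CSC and 0.149 to 0.157 in non-CSC. Exons of other genes cover 9.91% of the exon bases of Acsl1 (most of all Gm45244, on the other strand) and 8.31% of those of Acsl5 (most of all Zdhhc6, on the other strand), and since no source used here states whether counting used strand, reads from those bases cannot be told apart. The windows before the downstream start of Acsl1 and the start of Acsl5 are shown because these paralogs moved in opposite directions.
Acsl1, chr8:46490716-46490965, plus strand, GRCm38.p6: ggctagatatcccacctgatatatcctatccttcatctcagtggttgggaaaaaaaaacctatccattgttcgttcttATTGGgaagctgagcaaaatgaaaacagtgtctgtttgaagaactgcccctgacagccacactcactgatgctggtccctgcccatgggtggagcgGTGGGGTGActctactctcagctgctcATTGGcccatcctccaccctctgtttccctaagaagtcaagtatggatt
Acsl5, chr19:55253119-55253368, plus strand, GRCm38.p6: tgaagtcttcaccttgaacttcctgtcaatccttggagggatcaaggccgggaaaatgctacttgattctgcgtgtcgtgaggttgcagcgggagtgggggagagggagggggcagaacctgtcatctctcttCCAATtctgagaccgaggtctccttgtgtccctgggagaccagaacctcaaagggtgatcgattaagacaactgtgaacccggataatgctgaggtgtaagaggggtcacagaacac
The Acsl1 window held 2 CCAAT matches and 1 sterol core, the only such core in the windows of these genes, whereas the window of its upstream start held none of the 4 motifs. The window printed for Acsl1 is thus the one that held matches, and which start these cells use was not tested. The Acsl5 window held 1 CCAAT match and no other.

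**Figure D3:**
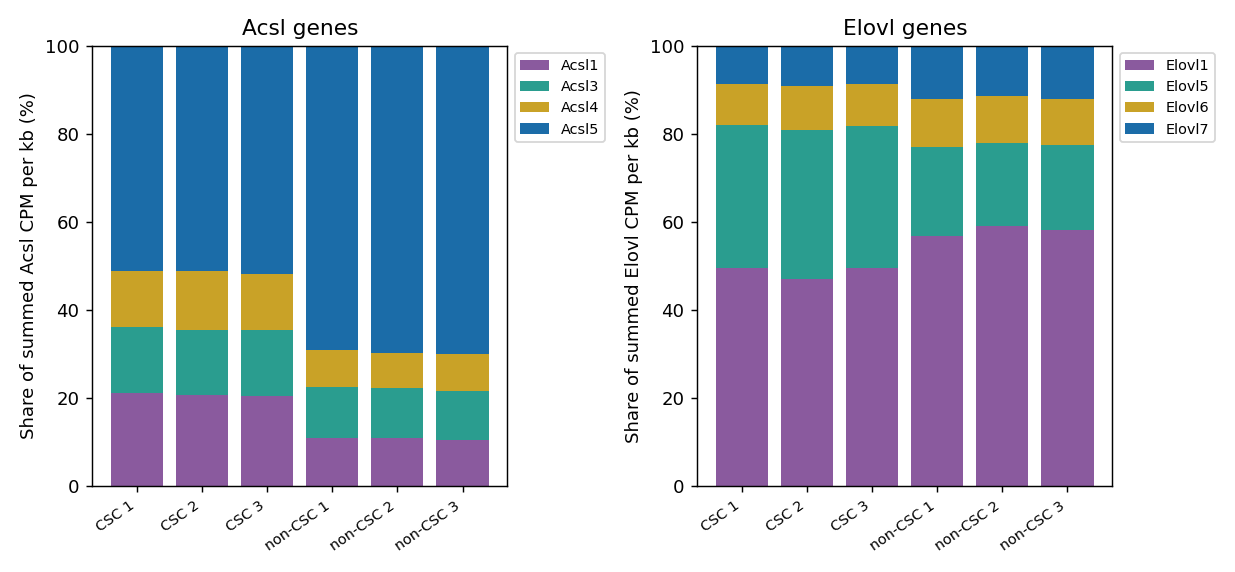
Share of the summed CPM per kilobase of transcript held by Acsl1, Acsl3, Acsl4 and Acsl5 (left panel) and by Elovl1, Elovl5, Elovl6 and Elovl7 (right panel), in percent, 1 bar per library with CSC on the left. Acsl5 holds 51.1% to 51.8% of the Acsl bar in CSC and 69.2% to 70.1% in non-CSC, and Elovl5 32.1% to 33.8% of the Elovl bar in CSC and 18.9% to 20.3% in non-CSC.

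In mitochondrial oxidation Cpt1a of the carnitine entry step was higher and Cpt2 lower, and enzymes of the spiral were lower, higher or did not pass. Cpt1a, the rate-limiting carnitine palmitoyltransferase of the outer membrane, was at 65.1, 61.8 and 63.0 CPM in CSC, against 42.9, 41.5 and 43.3 CPM in non-CSC (chromosome 19 at 3322326 to 3385735). It rose by 0.57 ± 0.044 on the log2 scale (SE; edgeR adjusted p = 6.55e-11), in a stretch whose 30 nearest genes had a median of -0.41. With that median as an offset its rise was 0.98 (adjusted p = 4.23e-15). Cpt2, its partner at the inner membrane, was at 29.8, 31.6 and 30.6 CPM in CSC, against 36.3, 34.1 and 34.5 CPM in non-CSC, a fall of 0.19 (adjusted p = 0.00198). The ratio of Cpt1a to Cpt2 per length was 1.075 to 1.199 in CSC and 0.648 to 0.690 in non-CSC. The relatives Cpt1c and Cpt1b are outside the 37 genes and were named after their values were seen. Cpt1c averaged 35.8 CPM in CSC and 40.3 CPM in non-CSC, a fall of 0.17 (adjusted p = 0.0033). Cpt1b averaged only 0.932 CPM in CSC and 0.567 CPM in non-CSC, a rise of 0.70 (adjusted p = 0.0154).

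The acyl-CoA dehydrogenases, which start each round and differ in the chain length they take, split by form. Acadm, for medium chains, was at 40.6, 40.3 and 35.8 CPM in CSC, against 64.1, 65.1 and 65.7 CPM in non-CSC (chromosome 3 at 153922353 to 153944643), a fall of 0.74 ± 0.049 on the log2 scale (SE; edgeR adjusted p = 4.63e-12). Acads, for short chains, was at 71.8, 78.8 and 67.0 CPM in CSC, against 93.3, 94.8 and 103 CPM in non-CSC, a fall of 0.42 (adjusted p = 1.51e-06). The genes for long and very long chains did not pass. Acadl was at 101, 104 and 101 CPM in CSC, against 99.6, 93.5 and 100 CPM in non-CSC (log2 fold change 0.06, 95% interval -0.02 to 0.14; edgeR adjusted p = 0.166), with all CSC libraries just above the non-CSC ones. Acadvl was at 70.5, 71.4 and 70.2 CPM in CSC, against 73.3, 68.8 and 69.5 CPM in non-CSC (0.00, interval -0.08 to 0.09; adjusted p = 0.941). Acadl passed as higher in 3 alternatives and as lower in 2, those with offsets for position. Exons of other genes, most of all Dvl2 on the other strand, cover 42.9% of the exon bases of Acadvl, and Dvl2 itself had 38.3 to 40.6 CPM in CSC and 51.7 to 55.7 CPM in non-CSC, so the level of Acadvl is uncertain. The neighbours of Acadm had a median of -0.23 and those of Acads -0.34. With these as offsets Acadm was lower by 0.51 (adjusted p = 3.2e-09), whereas Acads did not pass (-0.08, adjusted p = 0.209).

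The later enzymes of the round also differed among themselves. Hadh, the short-chain hydroxyacyl-CoA dehydrogenase, was at 80.7, 84.0 and 82.4 CPM in CSC, against 105, 111 and 107 CPM in non-CSC, a fall of 0.39 (edgeR adjusted p = 4.69e-09). Its neighbours had a median of -0.23, and with that as an offset the fall was 0.16 (adjusted p = 0.000724). Acaa2, the mitochondrial thiolase that ends a round, was at 48.0, 49.3 and 43.8 CPM in CSC, against 36.8, 33.0 and 33.4 CPM in non-CSC, a rise of 0.45 ± 0.054 (SE; adjusted p = 1.3e-07). The groups did not overlap for either gene. Hadha and Hadhb encode the alpha and beta subunits of the trifunctional protein, which carries out the last steps for long chains. Hadha was at 53.9, 52.2 and 50.5 CPM in CSC, against 57.96, 56.3 and 55.4 CPM in non-CSC, a fall of 0.12 (adjusted p = 0.0246) that was lost in 5 alternatives, among them leaving out CSC replicate 3 (-0.10, adjusted p = 0.106). Hadhb was at 35.5, 35.7 and 37.2 CPM in CSC, against 37.5, 34.4 and 36.5 CPM in non-CSC (0.00, 95% interval -0.10 to 0.10; adjusted p = 0.997). The ratio of Hadha to Hadhb per length was 1.48 to 1.66 in CSC and 1.66 to 1.79 in non-CSC.

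Hadha and Hadhb start 273 bases apart on chromosome 5 and are read in opposite directions, so the stretch between them lies upstream of both, and it is shown for that reason.
Hadha, chr5:30154981-30155230, minus strand, GRCm38.p6: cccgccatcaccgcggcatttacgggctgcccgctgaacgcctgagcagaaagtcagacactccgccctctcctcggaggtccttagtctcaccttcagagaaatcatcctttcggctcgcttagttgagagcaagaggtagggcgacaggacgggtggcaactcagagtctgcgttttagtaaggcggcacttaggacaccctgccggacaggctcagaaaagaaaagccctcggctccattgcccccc
It held none of the 4 motifs.

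Storage and lipolysis held the gene with the largest change. Mgll, the gene of monoacylglycerol lipase, which frees the last fatty acid from a glyceride, had 73, 62 and 52 counts in CSC, against 3, 3 and 2 counts in non-CSC (chromosome 6 at 88724412 to 88828360). These are 2.65, 2.19 and 1.79 CPM in CSC, against 0.0955, 0.0864 and 0.0565 CPM in non-CSC, so that the gene was low in both groups and close to no signal in non-CSC. The ratio of summed counts, scaled for library size, was 27.9 (exact 95% interval 13.9 to 65.7, which covers counting error only), and the fitted log2 fold change of 4.74 ± 0.31 (SE; edgeR adjusted p = 4.33e-12) depends on the prior count. Mgll passed the low-count filter only through its CSC libraries, so this p-value is not used as support. Per kilobase of transcript Mgll reached 0.554 CPM in CSC, beside 15.1 for Pnpla2 and 3.03 for Lipe, the lipases that act before it. Its level is below the 5 CPM of the naming rule, and it is described in full because its change was seen to stand out. The window before its upstream start is shown as that of the largest change.
Mgll, chr6:88724162-88724411, plus strand, GRCm38.p6: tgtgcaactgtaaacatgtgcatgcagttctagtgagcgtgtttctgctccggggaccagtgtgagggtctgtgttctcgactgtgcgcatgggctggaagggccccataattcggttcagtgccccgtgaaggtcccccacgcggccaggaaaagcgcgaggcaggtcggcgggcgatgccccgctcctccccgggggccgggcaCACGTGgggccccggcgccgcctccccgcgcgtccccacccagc
It held 1 E-box and no other motif, and the window of a start further downstream held none. Which of these starts the cells use was not tested.

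The other lipases did not follow. Pnpla2, the gene of adipose triglyceride lipase, which takes the first fatty acid from triglyceride, was at 42.6, 36.9 and 39.1 CPM in CSC, against 45.6, 46.7 and 46.1 CPM in non-CSC, a fall of 0.22 (edgeR adjusted p = 0.000524). Lipe, the gene of hormone-sensitive lipase, was at 12.4, 10.6 and 10.7 CPM in CSC, against 11.6, 10.5 and 10.6 CPM in non-CSC, and did not pass (log2 fold change 0.05, 95% interval -0.11 to 0.20; adjusted p = 0.611). Exons of other genes cover 15.6% of the exon bases of Lipe. Of the acyltransferases that complete triglyceride, Dgat2 was at 15.01, 17.6 and 16.1 CPM in CSC, against 12.5, 12.1 and 10.6 CPM in non-CSC, a rise of 0.47 ± 0.075 (SE; adjusted p = 7.69e-06). Its neighbours had a median of 0.26, and with that as an offset the rise was 0.21 (adjusted p = 0.0165). Dgat1 was at 14.6, 13.1 and 14.8 CPM in CSC, against 16.9, 15.4 and 15.4 CPM in non-CSC, a fall of 0.16 (adjusted p = 0.0369) that was lost in 8 alternatives, among them leaving out CSC replicate 2 (-0.11, adjusted p = 0.182) or non-CSC replicate 1 (-0.13, adjusted p = 0.104). The ratio of Dgat2 to Dgat1 per length was 0.859 to 1.117 in CSC and 0.573 to 0.654 in non-CSC.

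Of the carriers and droplet coats, Fabp5 fell. Fabp5, an intracellular fatty acid binding protein, was at 25.5, 26.2 and 20.9 CPM in CSC, against 42.4, 38.3 and 47.4 CPM in non-CSC (chromosome 3 at 10012585 to 10016610), a fall of 0.82 ± 0.10 on the log2 scale (SE; edgeR adjusted p = 9.52e-05). Its neighbours had a median of -0.33, and with that as an offset the fall was 0.49 (adjusted p = 0.00254). Fabp3, the heart form, had 2 to 6 counts in CSC libraries and 3 to 7 in non-CSC libraries, was not tested, and gave a ratio of summed counts of 1.29 (exact 95% interval 0.561 to 2.97). Plin2 and Plin3, coat proteins of lipid droplets, rose by 0.12 (adjusted p = 0.00969) and 0.11 (adjusted p = 0.0105). Plin2 was at 179, 173 and 173 CPM in CSC, against 167, 165 and 151 CPM in non-CSC, and Plin3 at 139, 138 and 135 CPM in CSC, against 129, 124.5 and 128 CPM in non-CSC. Neither call held without CSC replicate 1 (0.10, adjusted p = 0.0683 for Plin2; 0.09, adjusted p = 0.0681 for Plin3). Plin2 was also lost without non-CSC replicate 3 (0.07, adjusted p = 0.136) and Plin3 without non-CSC replicate 2 (0.09, adjusted p = 0.08).

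Since stretches of several chromosomes were shifted as a whole, each gene was set beside its neighbours. Protein-coding genes of chromosome 19, which holds 7 of the 37 genes, had a median log2 fold change of -0.29, and those of chromosome 3, which holds 4, had -0.18. Of the 16 genes that were lower in CSC, 12 had a neighbourhood median below 0, as had 7 of the 11 that were higher. With the neighbourhood median as an offset, 24 of the 27 calls were kept in direction and past the threshold, those of Acads, Plin3 and Dgat1 were lost, and 7 of the 8 genes that had not passed now did. Of these Scd1, Scd2, Elovl6 and Acadvl were higher and Fasn, Acadl and Hadhb lower. Since the offsets were taken as exact, passing here leaves out the spread among the neighbours. Whether the position of a gene has a part in its difference was not tested.

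**Figure D4:**
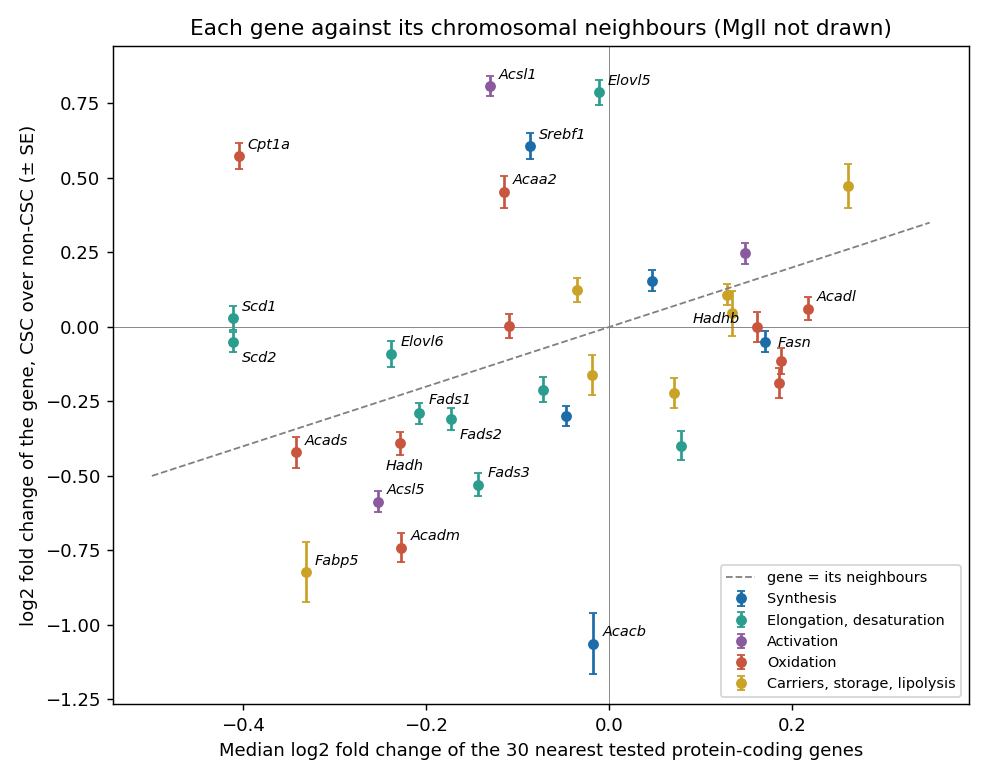
Log2 fold change of each tested gene except Mgll (y axis, with SE) against the median log2 fold change of its 30 nearest tested protein-coding genes (x axis); the dashed line marks a gene equal to its neighbours. Cpt1a, Scd1 and Scd2 lie well above the line in stretches with medians near -0.41, whereas Acads lies close to it.

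The rest of the pathway was read from the same fit for 119 further genes, of which 96 were tested, 42 were higher and 32 lower in CSC, with a median log2 fold change of 0.15. This share called, 77.1%, is again near that of protein-coding genes. Among regulators and suppliers of synthesis, 5 of 15 were higher and 6 lower (median -0.04), though 3 were lower with library-size scaling. Srebf2, the SREBP of cholesterol synthesis, was at 101, 94.7 and 99.6 CPM in CSC, against 206, 191 and 191 CPM in non-CSC, and fell by 0.99 ± 0.040 on the log2 scale (SE; edgeR adjusted p = 6.95e-16). Insig1, which holds SREBPs in the endoplasmic reticulum, fell by 0.67, whereas Scap, which escorts them to the Golgi, rose by 0.40. Mid1ip1, known to promote polymerisation of acetyl-CoA carboxylase, rose by 0.59. Exons of other genes cover 25.5% of the exon bases of Mid1ip1 and 13.2% of those of Scap, so both levels are uncertain.

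The further genes of elongation and desaturation, which are enzymes of the elongation cycle, other desaturases and the electron carriers of desaturation, included 6 of 11 that rose and 3 that fell (1 with upper-quartile or library-size scaling), with a median of 0.24, beside 1 and 5 among the 9 tested elongases and desaturases above; the difference between these lists was not tested. Hacd2, Hacd4 and Hacd3, dehydratases of the cycle, rose by 0.92, 0.84 and 0.32 on the log2 scale. Hacd1, the fourth dehydratase and named after its value was seen, fell by 0.64 (edgeR adjusted p = 0.000129), at 2.25, 2.51 and 2.86 CPM in CSC, against 4.43, 3.92 and 3.56 CPM in non-CSC. Hacd2 was at 35.3, 38.9 and 38.3 CPM in CSC, against 20.95, 19.4 and 19.2 CPM in non-CSC, and Hacd4 at 24.1, 25.1 and 26.2 CPM in CSC, against 14.1, 14.3 and 13.7 CPM in non-CSC. Exons of other genes, most of all Focad on the other strand, cover 11.0% of the exon bases of Hacd4. Fads6, a desaturase-like gene, rose by 0.41. The highest edgeR adjusted p among the 4 that rose was 2.98e-07, that of Hacd3.

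Of the other activation and uptake genes, 3 of 8 rose and 2 fell (median 0.14). Acsbg1, an acyl-CoA synthetase best known from brain, was at 21.0, 19.03 and 19.3 CPM in CSC, against 68.2, 69.3 and 70.2 CPM in non-CSC, a fall of 1.81 ± 0.050 on the log2 scale (SE; edgeR adjusted p = 4.65e-19). Acsl4, which prefers arachidonic acid, rose by 0.52, and was at 118, 126.5 and 122 CPM in CSC, against 84.9, 82.9 and 88.7 CPM in non-CSC. Among the transport proteins Slc27a1 fell by 0.83 and Slc27a4 rose by 0.27. The uptake receptor gene Cd36 had at most 1 count in a library.

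In the further list for mitochondrial oxidation 10 of 23 genes rose and 8 fell (median 0.12). That list also holds regulators, such as Ppard and Pparg, and the peroxisomal thiolase gene Acaa1a, so these counts are not of mitochondrial enzymes alone. Slc25a20, the carnitine-acylcarnitine carrier that works between Cpt1a and Cpt2, was at 11.4, 11.1 and 9.61 CPM in CSC, against 3.79, 3.43 and 4.38 CPM in non-CSC, a rise of 1.46 ± 0.099 on the log2 scale (SE; edgeR adjusted p = 7.59e-12). Of its 50-base words 11.0% also occur in other genes, with AC136710.2 sharing the most, so its level is uncertain. Etfdh, which passes electrons from the dehydrogenases to ubiquinone, was at 41.99, 40.2 and 40.1 CPM in CSC, against 18.6, 20.7 and 22.6 CPM in non-CSC, a rise of 0.98 (adjusted p = 1.59e-12). Acad11, a dehydrogenase of very long chains, rose by 1.28. Ppard, a nuclear receptor for fatty acids, fell by 0.90. Its relative Pparg, chosen after its value was seen, was at 1.63, 1.201 and 1.14 CPM in CSC, against 5.99, 6.45 and 7.01 CPM in non-CSC, a fall of 2.30 (adjusted p = 5.4e-13). For each of these genes the groups were apart.

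Peroxisomal oxidation, which shortens very long and branched chains, had 9 of 17 genes higher and 5 lower (median 0.22). Crot, which exports shortened chains as carnitine esters, rose by 0.73 on the log2 scale, and Acox3, an oxidase of branched chains, by 0.66. Amacr, a racemase of branched chains, fell by 0.83. Abcd4, an ABC transporter named with the peroxisomal ones but known for lysosomal cobalamin export, was at 3.95, 4.13 and 4.34 CPM in CSC, against 26.5, 26.9 and 25.1 CPM in non-CSC, a fall of 2.66 ± 0.074 (SE; edgeR adjusted p = 4.99e-19), where its neighbours had a median of -0.52. Abcd2, a peroxisomal importer of very long chains chosen after its value was seen, was at 8.27, 6.85 and 7.99 CPM in CSC, against 0.860, 0.979 and 0.622 CPM in non-CSC, a rise of 3.23 (adjusted p = 3.9e-15).

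In triglyceride synthesis and droplet turnover 9 of 22 further genes rose and 8 fell (median 0.09). Mogat2, a monoacylglycerol acyltransferase that lies beside Dgat2 on chromosome 7, was at 182, 179 and 170.1 CPM in CSC, against 86.9, 88.3 and 88.4 CPM in non-CSC, a rise of 1.01 ± 0.037 on the log2 scale (SE; edgeR adjusted p = 1.07e-16). Gpam, the mitochondrial glycerol phosphate acyltransferase, was chosen after its value was seen. It was at 4.39, 4.20 and 5.17 CPM in CSC, against 0.287, 0.374 and 0.368 CPM in non-CSC, a rise of 3.72 ± 0.18 (adjusted p = 1.94e-14). Gpam passed the low-count filter only through its CSC libraries, so this p-value is not used as support. It lies on chromosome 19 at 55067635 to 55127319, close to Acsl5, which fell. Gpat3, an acyltransferase of the same step in the endoplasmic reticulum, fell by 0.71, but exons of other genes cover 37.4% of its exon bases, so its level is uncertain. Mttp, which loads lipid onto lipoproteins, fell by 0.92, and Lpl, the lipoprotein lipase gene, by 0.78. Lpl was at 53.9, 51.8 and 53.1 CPM in CSC, against 83.8, 91.6 and 96.4 CPM in non-CSC.

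**Figure D5:**
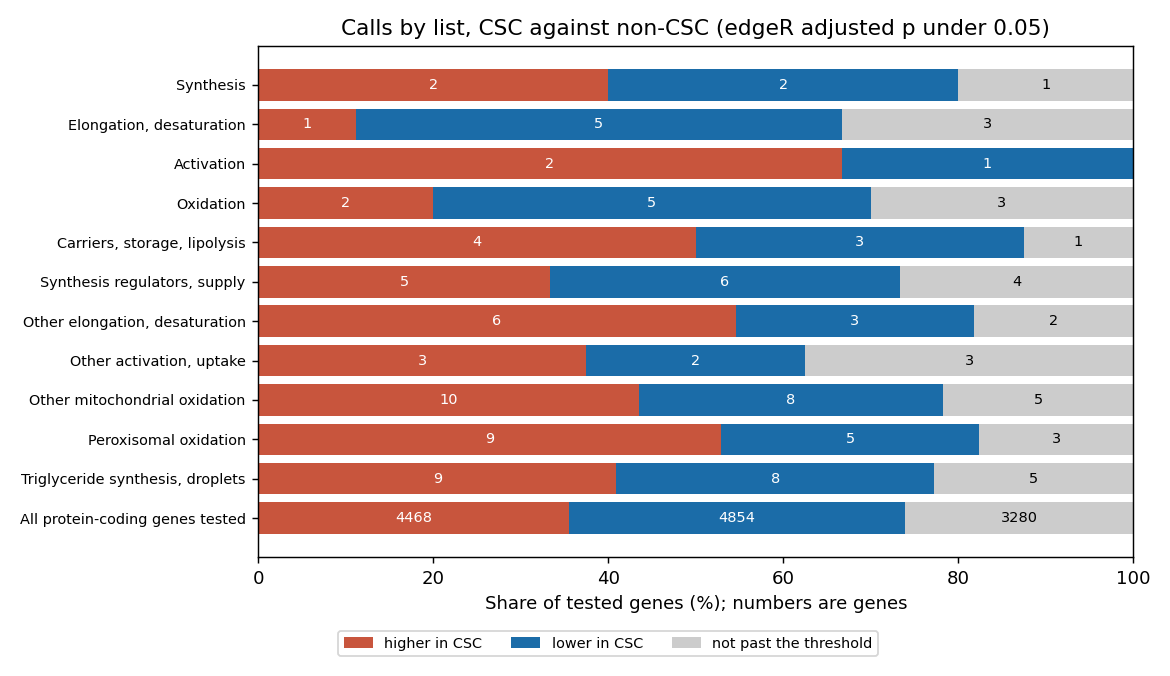
Share of tested genes (x axis, percent) that were higher in CSC, lower in CSC or not past the threshold, for the 5 roles described, the 6 further lists and all protein-coding genes tested; the numbers in the bars are genes. The 9 tested elongases and desaturases had 1 gene higher and 5 lower, and the 11 further genes of elongation and desaturation 6 higher and 3 lower. The further list for mitochondrial oxidation also holds regulators and the peroxisomal thiolase gene Acaa1a.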

How the data were processed

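RNA sequencing libraries of EO771 cells, 3 of CSC and 3 of non-CSC, were grouped by their titles. The authors deposited raw counts in 1 table, as whole numbers for each symbol without scaling. The genome build was GRCm38, per the submitters' processing notes, with aligner, counter, annotation, strand setting and filters not given in the sources used here. Per the labels' protocols, Trizol RNA was made into libraries with an NEB Ultra kit. The 49523 genes were filtered with filterByExpr, scaled with TMM and fitted in edgeR 4.0.16 under R 4.3.3 (quasi-likelihood, robust), with Benjamini-Hochberg adjustment over 17630 genes at 0.05. The SE is the size of the log2 fold change divided by the square root of F.

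The 37 genes, the 6 further lists and the tests were chosen with earlier results of these data known. By rule, up to 4 genes per role or list were named, those with the largest change among genes called at a mean of at least 5 CPM. Values of the other genes among the 37 are given to account for each of them, Acacb and Mgll being below that level. Promoter windows and gene positions came from RefSeq GRCm38.p6, and lengths, overlaps and shared 50-base words from GENCODE M21, with the longest transcript as a gene's length. The 17 alternatives were other scalings, filters and tools (limma 3.58.1, DESeq2 1.42.0), leaving out each library, a replicate block, and offsets for chromosome or for the 30 nearest tested protein-coding genes. Intervals and floors from counts cover counting error only. The fit was tested on simulated data.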

Additional observations from a re-analysis of the deposited data

How the results depend on the processing

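Of the 27 calls, 18 kept their direction and side of the threshold in all 17 alternatives. Mgll did so in the 16 that tested it, though it passed the main filter only through CSC. Of the 594 values of fatty acid genes under alternatives, 530 kept both. Without a change of sign, 22 lost the call and 12 gained one. The other 30 changed direction, by the sign of the fitted value whatever its size. Some of these 30 also lost a call, as Fads1 did with the chromosome offset, or gained one, as Scd2 did with either offset. The 459 values of the further genes named all kept direction and side of the threshold. Those genes were named because they were called with large changes, or were chosen after their values were seen. Their stability was therefore largely set by that choice and cannot be compared with the 594 values. Gpam, which is among the further genes named, passed the main filter only through CSC. Hacd1, Cpt1b and Cpt1c are not among the further genes counted here. The causes were not tested. With the neighbourhood offset the sign changed for Scd2 (0.36), Elovl6 (0.15), Acadl (-0.16), Hadhb (-0.16), Plin3 (-0.02) and Lipe (-0.088), and with the chromosome offset for Scd2 (0.24), Elovl6 (0.093), Fads1 (0.00175), Acadl (-0.13) and Acadvl (-0.023). With upper-quartile and library-size scaling it changed for Fasn (0.0095 and 0.0165) and Scd2 (0.0087 and 0.0157). Acadvl and Hadhb, both close to 0, turned negative with RLE scaling (-0.0020 and -0.0057), with no filter beyond 1 count (-0.0213 and -0.0251) and with DESeq2 (-0.0020 and -0.0058). When each library was left out, the values spanned 0 for Scd1 (-0.0071 to 0.0615), Acadvl (-0.0181 to 0.0198), Hadhb (-0.0389 to 0.0154) and Lipe (-0.0380 to 0.0792). Counts by role moved by over 1.5 times in these cases. Elongases and desaturases called higher were 1, but 2 with upper-quartile or library-size scaling, 3 with the chromosome offset and 4 with the neighbourhood offset, and those called lower were 5, but 3 with the chromosome offset. Synthetases called higher were 2, but 1 with the chromosome offset. Among the further lists, regulators of synthesis called lower were 6, but 3 with library-size scaling, and further elongation and desaturation genes called lower were 3, but 1 with upper-quartile or library-size scaling. Storage genes called higher were 4, and 2 to 4 when each library was left out, with 2 without CSC replicate 1. Deviations of same-numbered libraries from their group means correlated at -0.066 to -0.0004, and no library correlated best with its own number. With 3 libraries per group these correlations are tied to each other. They therefore cannot show whether libraries of the same number were prepared as pairs. A replicate block called 11680 of all genes instead of 11732 and changed no call among the 35. Low counts limit Mgll, Fabp3 and Elovl4.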
